A study of Mus musculus with 8 samples.

Results

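The Sonic hedgehog pathway was read at 10 genes in H3K9ac ChIP-seq peak lists of the adult mouse cerebellum. They were the ligand Shh, its receptor Ptch1, the transducer Smo, the inhibitor Sufu, the transcription factors Gli1, Gli2 and Gli3, and the growth genes Mycn, Ccnd1 and Ccnd2. A gene was taken to carry a peak in a library when a peak overlapped the gene or lay within 5 kb of it on mm10. All 10 were matched among 21887 protein-coding genes. Their windows held 37 of the 52676 peaks in the lists.

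H3K9ac, the acetylated form of lysine 9 in histone H3, is a mark of active promoters, and ChIP-seq maps it by sequencing the DNA that an antibody to it brings down. There were 4 libraries from symptomatic mice heterozygous for the 266Q knock-in, a long glutamine tract in ataxin-7, and 4 from wild type littermates. All were cerebella of C57BL/6 mice aged 9 weeks. Sex, pooling of tissue and whether each library stands for its own animal are not given by the labels. A p-value for the length covered by peaks therefore refers only to the spread among these libraries, and part of that spread may be technical. A p-value for the presence of a peak comes from odds of detection per library, fitted over all genes, and takes the libraries as independent.

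In the developing cerebellum Purkinje cells secrete SHH, which drives granule cell progenitors to divide. Without ligand, PTCH1 holds SMO inactive; with ligand, SMO is released and frees the GLI factors from SUFU. GLI then switches on target genes that include Gli1 and Ptch1 themselves, and progenitors raise Mycn and the D-type cyclins. The progenitor layer is gone in the adult cerebellum, where Purkinje cells still make SHH and Bergmann glia are known to respond to it.

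The lists varied widely in length within each genotype. Knock-in replicates 1 to 4 held 10607, 11268, 5571 and 1266 peaks, and wild type replicates 1 to 4 held 11409, 7735, 3249 and 1571. Median peak widths were 1065 to 1246 bp in replicates 1 and 2 of both genotypes, called the long lists here, and 132 to 148 bp in replicates 3 and 4. The share of all protein-coding genes with a peak in the window ranged from 2.78% (exact Clopper-Pearson 95% interval 2.57 to 3.01) in knock-in replicate 4 to 46.9% (46.3 to 47.6) in knock-in replicate 1. These intervals cover counting error only. The depth behind each list is unknown, so each result is given by library. Of the granule cell markers 10 of 10 carried a peak in every long list, and 0 of 6 genes of other tissues carried one in any library. In at least 1 library a peak was found at 4 of 6 granule cell progenitor markers, 4 of 8 Purkinje cell markers, 4 of 8 markers of astrocytes and Bergmann glia, 2 of 6 of oligodendrocytes, 1 of 5 of microglia and 2 of 5 of vascular cells, where the share over all genes was 56.3%. Of the progenitor list, Meis1 was found in 3 knock-in libraries and 2 wild type ones, and Barhl1 and Mfap4 each in 2 and 1. Sfrp1 was found in 1 library of each genotype, and Atoh1 and Nhlh1 in 0. Meis1 was found in the same libraries as the granule cell markers Gabra6, Neurod1, Etv1 and Zic1. Of the Purkinje cell list, Itpr1 was found in 2 knock-in libraries and 0 wild type ones, and Foxp2 in 1 knock-in library and 3 wild type ones; the conditional exact p of Foxp2 was 0.0188, and 1.00 after adjustment. In knock-in replicate 4, the shortest list, 0 of 10 granule cell markers carried a peak, against 3 of 10 in wild type replicate 4.

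The promoter sequences show how unlike the members are at their start sites. The 250 bases before the RefSeq start site (GRCm38.p6, the assembly that mm10 names) are printed 5′ to 3′ on the gene's strand for the 6 matched members. Capitals mark CpG dinucleotides, which are dense at many active promoters. The first 3 genes had a peak over this stretch in some library and the last 3 had none.
Ptch1, chr13:63565736-63565985, minus strand: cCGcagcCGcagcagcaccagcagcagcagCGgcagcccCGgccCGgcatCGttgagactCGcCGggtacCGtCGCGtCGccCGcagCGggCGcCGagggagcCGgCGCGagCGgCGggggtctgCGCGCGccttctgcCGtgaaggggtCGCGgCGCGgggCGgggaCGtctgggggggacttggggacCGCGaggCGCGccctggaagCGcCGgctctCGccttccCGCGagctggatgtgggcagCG
Smo, chr6:29735247-29735496, plus strand: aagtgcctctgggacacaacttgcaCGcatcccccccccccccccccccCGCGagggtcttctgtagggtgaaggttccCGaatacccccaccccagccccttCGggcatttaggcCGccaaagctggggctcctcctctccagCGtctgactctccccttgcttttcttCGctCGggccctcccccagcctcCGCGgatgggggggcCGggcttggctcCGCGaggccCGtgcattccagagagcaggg
Sufu, chr19:46396646-46396895, plus strand: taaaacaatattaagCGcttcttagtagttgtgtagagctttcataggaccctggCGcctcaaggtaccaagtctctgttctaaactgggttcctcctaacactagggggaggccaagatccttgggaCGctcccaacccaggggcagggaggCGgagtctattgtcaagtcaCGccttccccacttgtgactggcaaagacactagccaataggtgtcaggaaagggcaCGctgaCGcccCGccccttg
Gli2, chr1:119053620-119053869, minus strand: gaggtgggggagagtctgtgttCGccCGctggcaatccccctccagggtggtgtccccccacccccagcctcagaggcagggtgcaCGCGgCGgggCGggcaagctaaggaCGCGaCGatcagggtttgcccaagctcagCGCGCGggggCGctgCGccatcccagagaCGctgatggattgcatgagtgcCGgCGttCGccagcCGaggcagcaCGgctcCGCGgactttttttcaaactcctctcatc
Gli3, chr13:15463473-15463722, plus strand: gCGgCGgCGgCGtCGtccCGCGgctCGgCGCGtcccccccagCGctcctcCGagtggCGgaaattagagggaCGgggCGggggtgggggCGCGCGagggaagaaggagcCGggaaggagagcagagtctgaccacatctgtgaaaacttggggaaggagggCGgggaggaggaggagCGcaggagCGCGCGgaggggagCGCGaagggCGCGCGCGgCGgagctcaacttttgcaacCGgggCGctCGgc
Mycn, chr12:12941837-12942086, minus strand: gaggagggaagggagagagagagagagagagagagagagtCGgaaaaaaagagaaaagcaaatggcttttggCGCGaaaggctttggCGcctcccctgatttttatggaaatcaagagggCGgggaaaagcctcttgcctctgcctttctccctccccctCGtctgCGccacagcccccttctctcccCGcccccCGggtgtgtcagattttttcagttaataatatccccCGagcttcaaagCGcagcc

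H3K9ac peaks were found at the receptor, the transducer, the inhibitor and both cyclins, and at none of the ligand, the GLI factors and Mycn. Ptch1 carried a peak in 7 of 8 libraries, Smo and Sufu in 5 each, Ccnd1 in 3 and Ccnd2 in 1. Shh, Gli1, Gli2, Gli3 and Mycn carried none in any library, as did 43.7% of all genes. So 5 of 10 members had a peak in at least 1 library, where the share over all protein-coding genes was 56.3%, and the members as a group lay near that background. The number of members with a peak was 4, 4, 2 and 1 across knock-in replicates 1 to 4, against 5, 3, 1 and 1 across wild type replicates 1 to 4. The mean was 2.75 ± 1.5 members in knock-in and 2.50 ± 1.91 in wild type (SD, n = 4 each), and 4.00 in both genotypes over replicates 1 and 2.

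**Figure D1:**
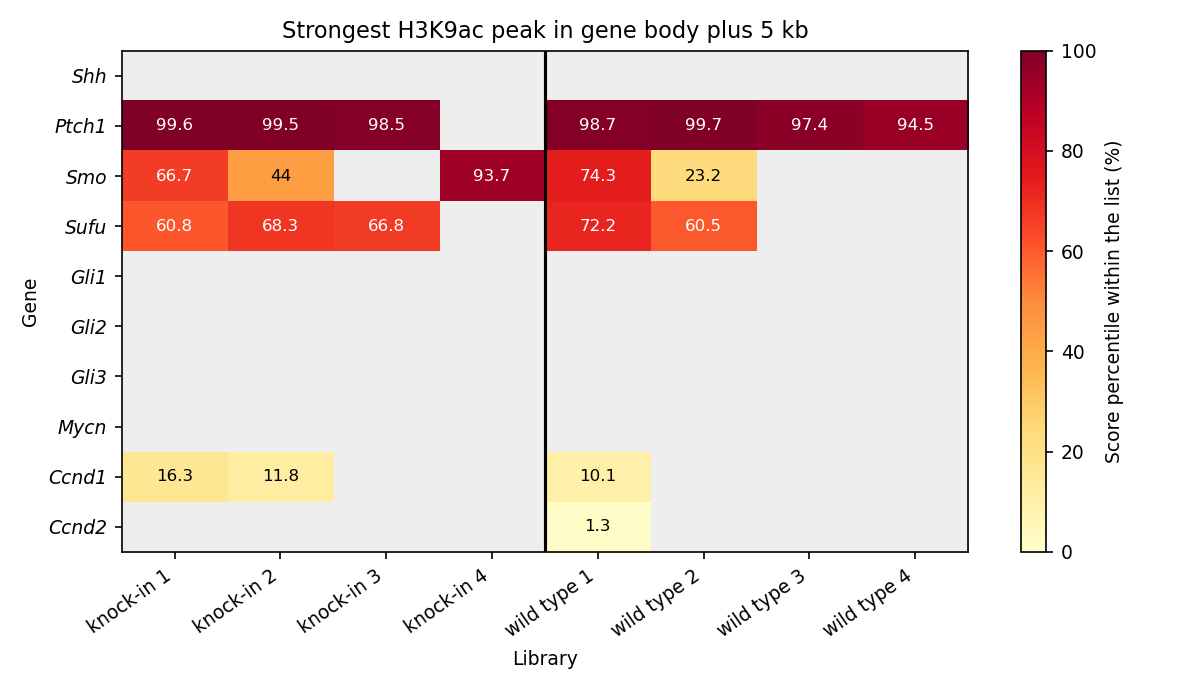
The grid gives, for each gene (rows) and library (columns, knock-in left of the black line and wild type right of it), the score percentile within its list of the strongest peak in the gene body plus 5 kb; grey cells have no peak. The row of Ptch1 lies at 94.5 to 99.7 in 7 libraries, and the rows of Shh, Gli1, Gli2, Gli3 and Mycn are empty.

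Ptch1 (chromosome 13, 63508328 to 63573460), the SHH receptor and itself a GLI target, had among the strongest peaks of each list that held it. Its main region (63562465 to 63566909) lay over the RefSeq start site, from 1174 bp upstream to 3270 bp downstream. Peaks covered 4313, 3953, 793 and 0 bp of it in knock-in replicates 1 to 4, and 4445, 4007, 591 and 478 bp in wild type replicates 1 to 4. Coverage was broad in all long lists, short in the short lists and absent in knock-in replicate 4 alone.

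The score of a peak is the authors' own value, and it serves here to order the peaks of 1 list. The strongest Ptch1 peak ranked 41 of 10607, 56 of 11268 and 86 of 5571 in knock-in replicates 1 to 3. It ranked 155 of 11409, 23 of 7735, 86 of 3249 and 87 of 1571 in wild type replicates 1 to 4. In every list that held it, this peak stood above the 94th percentile of scores and the 96th percentile of widths. Among genes ordered by their strongest peak, Ptch1 was within the top 2.17% in all of these libraries.

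A second Ptch1 region (63572234 to 63573957) lay over the upstream end of the annotated gene (63573460), and its peak crossed that end in all long lists. It was 8222 to 6499 bp before the RefSeq start site used here, which itself lies inside the annotated gene. The length of this second region was 1724 and 1374 bp across the knock-in long lists, against 1254 and 1012 bp across the wild type long lists. None of replicates 3 and 4 had a peak there. Its score percentiles were moderate, at 55.2 and 69.9 in the knock-in lists and 66.4 or higher in the wild type lists. A peak of 713 bp further inside the gene was in knock-in replicate 2 alone, and one of 849 bp between both regions was in wild type replicate 2 alone. Both were weak, at score percentiles 2.56 and 2.01.

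**Figure D2:**
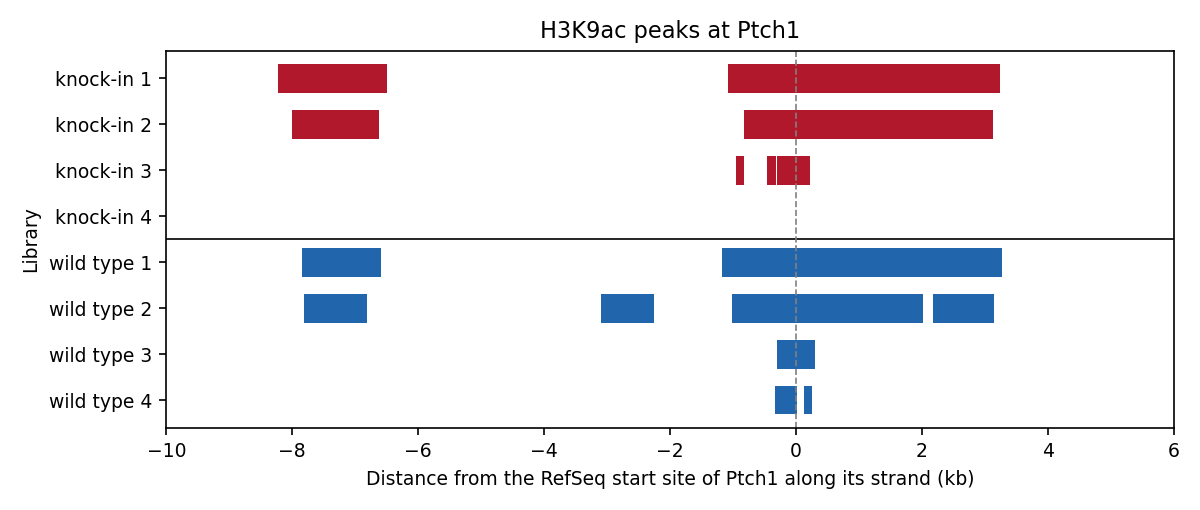
Bars are H3K9ac peaks in each library (red, knock-in, above the line; blue, wild type, below it) by distance in kb from the RefSeq start site of Ptch1 along its strand (dashed line); the weak peak of knock-in replicate 2 deep in the gene lies outside the plotted range. All 7 libraries with a peak cover the start site, and only the long lists have the upstream region.

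Over all 8 libraries, covered length of Ptch1 did not differ between genotypes beyond the spread between libraries. Most of that spread lay between long and short lists, and the test of detection could not have passed. Detection in 3 of 4 knock-in libraries against 4 of 4 wild type libraries gave a conditional exact p of 1.00, also after adjustment over all genes. This test fixes how many libraries hold a peak in all and allows for the different length of each list. With 7 libraries the only other split is 4 knock-in and 3 wild type, which gives a conditional exact p of 0.443. Its result at Ptch1 therefore says nothing about genotype. Of all genes, 2.21% had a peak in at least 7 libraries. Covered length over the whole window was 3218 ± 3270 bp in knock-in and 3159 ± 3030 bp in wild type (SD, n = 4 each), and the two-sided exact permutation p was 0.914. With long and short lists mixed, this test could not resolve a difference within the long lists. Across these, covered length was 6037 and 6040 bp for knock-in (mean 6038.5), against 5699 and 5868 bp for wild type (mean 5783.5). Across replicates 3 and 4 it was 793 and 0 bp for knock-in, against 591 and 478 bp for wild type. Neither pair of replicates was tested alone. The overall difference of 58.5 bp (knock-in minus wild type) was small. It became -881 bp without knock-in replicate 1, -882 bp without knock-in replicate 2, -798 bp without wild type replicate 3 and -835 bp without wild type replicate 4. It was 1130 bp without knock-in replicate 4, the list that lacks the gene.

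Smo (chromosome 6, 29735497 to 29761366) encodes the membrane protein that passes the signal inward once PTCH1 lets go of it. Its start site region (29735204 to 29736653) carried peaks of 1209 and 1113 bp across the knock-in long lists, against 1147 and 1018 bp across the wild type long lists. No short list had a peak there. Score percentiles were 66.7 and 44.0 for knock-in, against 8.49 and 23.2 for wild type, so within each list these were ordinary or weak peaks. The peak of wild type replicate 1 began 10 bp after the start site and did not reach the promoter stretch printed above.

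A second Smo region lay inside the gene (29747453 to 29749560), 11956 to 14063 bp after the start site and within 1 kb of the pseudogene Gm13717. Its covered length was 0, 1791, 0 and 775 bp in knock-in replicates 1 to 4, and 2087, 0, 0 and 0 bp in wild type replicates 1 to 4. It was the one member region found in knock-in replicate 4, where its stronger peak reached score percentile 93.7. The count of libraries with a peak at Smo, 3 in knock-in and 2 in wild type, thus mixed both regions. The start site region alone was in 2 libraries of each genotype, and the start site base itself was covered in 2 knock-in and 1 wild type libraries. The gene's conditional exact p was 1.00, before and after adjustment. Covered length was 1222 ± 1230 bp in knock-in and 1063 ± 1520 bp in wild type (SD, n = 4 each), and the two-sided exact permutation p was 0.914. Over the long lists alone the mean was 2056.5 bp for knock-in, against 2126 bp for wild type. The difference (knock-in minus wild type) was 159 bp over all libraries, -402 bp without knock-in replicate 2 and -195 bp without either wild type replicate 3 or wild type replicate 4.

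Sufu (chromosome 19, 46396896 to 46488804) encodes the protein that holds GLI factors in check. Its start site region (46396696 to 46398268) covered 1048, 1033, 177 and 0 bp in knock-in replicates 1 to 4, and 1573, 978, 0 and 0 bp in wild type replicates 1 to 4. Score percentiles were in a narrow range, 60.8 to 68.3 in 3 knock-in libraries and 60.5 and 72.2 in 2 wild type libraries. The region lay within 1 kb of Actr1a, a neighbouring gene, so the window cannot assign it to Sufu alone. A second region deep inside Sufu (46441426 to 46442863) covered 1438 and 1126 bp in knock-in replicates 1 and 2 and 703 bp in wild type replicate 1, and no other library had it.

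The genotypes overlapped at Sufu. Detection in 3 of 4 knock-in libraries against 2 of 4 wild type libraries gave a conditional exact p of 1.00, before and after adjustment. Covered length was 1206 ± 1300 bp in knock-in and 813.5 ± 1080 bp in wild type (SD, n = 4 each), and the two-sided exact permutation p was 0.657. Over the long lists alone it averaged 2322.5 bp for knock-in, against 1627 bp for wild type. Without knock-in replicate 1 the difference, knock-in minus wild type, was -34.8 bp.

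The D-type cyclins, which carry cells from G1 into S phase, had weak peaks or none. Ccnd1 (chromosome 7, 144929931 to 144939831) had 1 region (144937623 to 144938691), near the higher-coordinate end of the gene. It measured 1069 and 946 bp in knock-in replicates 1 and 2 and 896 bp in wild type replicate 1, and the other libraries had none. Score percentiles were 16.3 and 11.8 for knock-in, against 10.1 for wild type, near the bottom of each list. Detection of Ccnd1 in 2 knock-in libraries against 1 wild type library gave a conditional exact p of 1.00. Covered length was 503.8 ± 584 bp in knock-in and 224 ± 448 bp in wild type (SD, n = 4 each), and the two-sided exact permutation p was 0.429.

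Ccnd2 (chromosome 6, 127125162 to 127152188) had a single peak of 806 bp, in wild type replicate 1. It stood at score percentile 1.30 of that list and lay within 1 kb of the lncRNA gene 9330179D12Rik. Detection in 0 of 4 knock-in libraries against 1 of 4 wild type libraries gave a conditional exact p of 0.278, which was 1.00 after adjustment. A gene found in 1 library cannot give a lower p by this test, so Ccnd2 could not have passed it. The covered length had an exact permutation p of 1.00, the only value possible with a peak in 1 library.

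**Figure D3:**
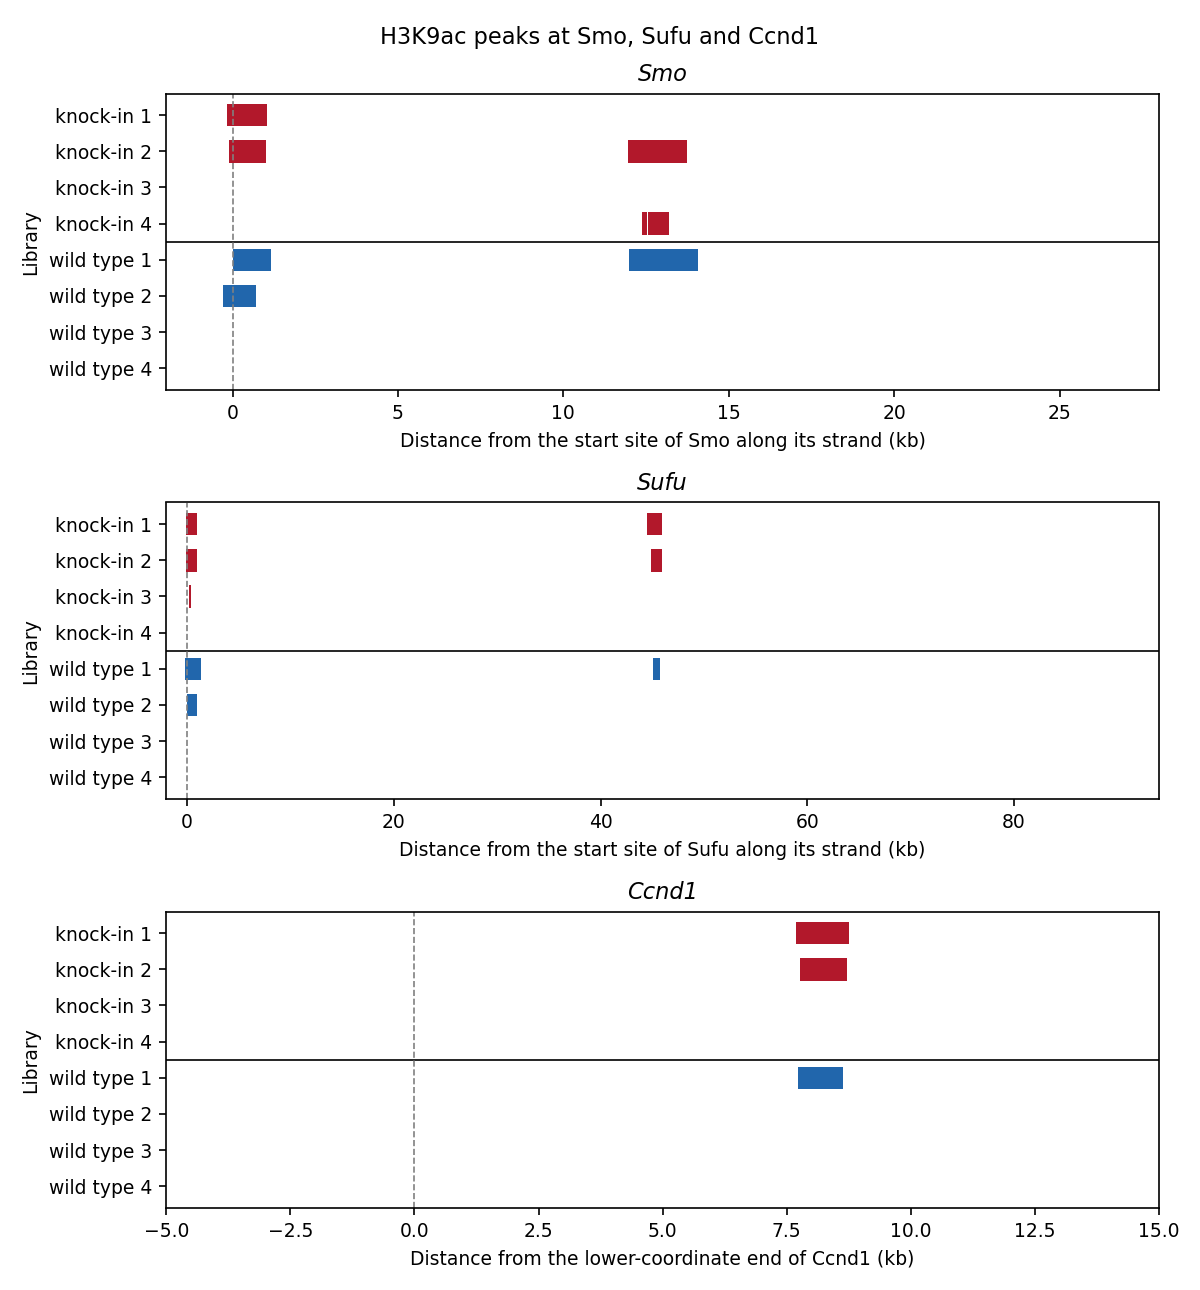
Bars are H3K9ac peaks in each library (red, knock-in, above the line; blue, wild type, below it) by distance in kb from the start site of Smo and Sufu along the strand, and from the lower-coordinate end of Ccnd1 (dashed lines). All long lists have a peak that covers the start site of Smo and Sufu or, for Smo in wild type replicate 1, begins 10 bp after it, while the regions inside both genes and at Ccnd1 are in 3 libraries each.

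No member passed a test between genotypes. For Ptch1 and Ccnd2 the conditional exact test could not have passed under any split of their libraries, even before adjustment. The smallest p of this test over all genes, 0.000273, also missed the threshold after adjustment. The lack of a call at Smo, Sufu and Ccnd1 therefore says little about genotype as well. Of the 10, 3 (Smo, Sufu and Ccnd1) were in more knock-in than wild type libraries, where 25.5% of all genes were. The 2 in more wild type libraries were Ptch1 and Ccnd2, where 8.37% of all genes were. Among 12244 genes tested, the conditional exact test called 0 (0%) and so 0 members; before adjustment 157 genes (1.28%) and 0 members had p under 0.05. Fisher's exact test takes no account of list length. Its p cannot fall below 0.0286 here, so it could call no gene after adjustment; 2 genes had p under 0.05 before it. For covered length the exact permutation test, which cannot give a p below 0.0286 with 4 libraries against 4, called 0 of 12329 genes (0%), and 2 of them (0.0162%) had p under 0.05 before adjustment. A p that misses the threshold does not show that the genotypes are alike.

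Shh, the ligand (chromosome 5, 28456840 to 28467101), had no peak in its window in any library. The nearest peaks were 128, 139, 139 and 249 kb away in knock-in replicates 1 to 4, and 128, 139, 139 and 139 kb away in wild type. In knock-in replicates 1 to 3 and in all wild type libraries that peak lay at Rbm33. Purkinje cells are few among cerebellar cells. In whole tissue, few cells with the mark and little of the mark per cell cannot be told apart.

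The GLI factors were without a peak too. Gli1 (chromosome 10, 127329882 to 127341579), the GLI activator whose transcription reports pathway activity, had its nearest peaks at the neighbouring Mars1, 17.8 to 18.1 kb away in all long lists. Gli2 (chromosome 1, 118834061 to 119054405), the main activator, and Gli3 (chromosome 13, 15463723 to 15730026), which acts mostly as a repressor, are long genes of 220345 and 266304 bp. Of 990 protein-coding genes of 200 kb or longer, 86.8% had a peak in at least 1 library, so a long window without any was less common. The nearest peaks were 88.4 to 1550 kb from Gli2 and 121 to 3350 kb from Gli3. Mycn (chromosome 12, 12936093 to 12941836), the MYC family factor of dividing progenitors, had none nearer than 137 kb.

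CpG density did not tell the marked promoters from the unmarked ones among these genes. The 250-base stretch held 41 CpG in Ptch1, 15 in Smo and 8 in Sufu, with a peak over it in 7, 3 and 4 libraries. It held 34 in Gli3, 22 in Gli2 and 11 in Mycn, with a peak over it in 0 libraries. Of 948 protein-coding promoters with at least as many CpG as Gli3, 94.6% had a peak over this stretch in some library and 76.7% in all 4 long lists. For Gli2 these shares were 86.4% and 56.4% of 4140 promoters, and for Mycn 74.4% and 37.9% of 10103. They take in denser promoters too, and within each gene's own class the shares were lower. They were 91.6% and 67.9% for Gli3 (30 to 34 CpG), 76.8% and 37.6% for Gli2 (20 to 24) and 55.7% and 18.5% for Mycn (10 to 14). Sufu lay on the other side, since in the class of 5 to 9 CpG that holds it 27.6% of promoters had a peak in some library and 7.12% in all 4 long lists. These shares describe single promoters, with no test.

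**Figure D4:**
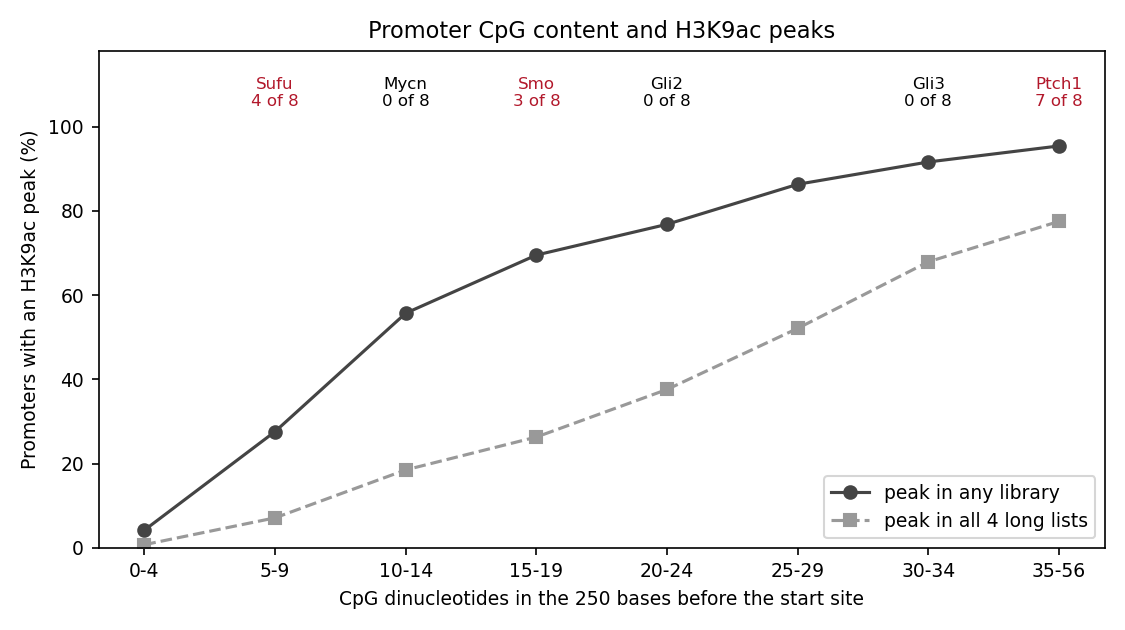
Lines give the share of RefSeq promoters of protein-coding genes with an H3K9ac peak over the 250 bases before the start site (y axis, %), in any library (circles) or in all 4 long lists (squares), by the number of CpG in those bases (x axis). Names above give each member's class and in how many of 8 libraries its own stretch had a peak; the share goes up from 4.2% to 95.4% across classes, with Gli2 and Gli3 unmarked in dense classes and Sufu marked in a sparse one.

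The GLI binding motif was looked for in the same stretches as GACCACCCA on both strands. None of the 6 members held it, with or without 1 mismatch. Over all protein-coding promoters 0.160% held it exactly and 5.80% with up to 1 mismatch. No match says only that these letters are not in this window.

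Other genes of the pathway were read from lists chosen by role, and in the long lists peaks were most frequent in the relay from SMO to GLI. All 19 relay genes (kinases, phosphatases and adaptors such as Gsk3b and Prkaca) carried a peak in both knock-in long lists, against 17 and 15 of them in the wild type long lists. Their median was 5 libraries with a peak, against 1 over all protein-coding genes. Across replicates 3 and 4 the relay counts were 8 and 1 for knock-in, against 6 and 2 for wild type, and the relay did not lead the lists in knock-in replicate 4 or in wild type replicates 3 and 4. The share of all genes with a peak was 46.9%, 44.9%, 16.6% and 2.78% in knock-in replicates 1 to 4, against 41.5%, 34.9%, 9.72% and 3.83% in wild type replicates 1 to 4, and the counts of every list are to be read beside these shares. Gsk3b and Prkaca were picked as examples. Many of these genes work in other pathways as well. Stk36, a kinase related to the fly protein Fused, was found in 2 knock-in libraries and 0 wild type ones (conditional exact p = 0.425).

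Ligand processing and receptor-level genes were marked unevenly. Of 8 genes for other ligands and their processing, 5, 4, 3 and 1 were marked across knock-in replicates 1 to 4, against 5, 3, 2 and 2 across wild type replicates. Hhat, the acyltransferase that attaches palmitate to SHH, carried a peak in 8 of 8 libraries, and Scube3, a secreted protein of the family that helps release SHH, in 3 knock-in and 4 wild type libraries. Scube3 and Csnk1d were the 2 pathway genes with the same presence pattern as Ptch1, a pattern counted at 222 genes over all protein-coding genes. Of 8 co-receptors and inhibitors, 3, 5, 3 and 0 were marked across knock-in replicates, against 4, 2, 3 and 0 across wild type replicates. The co-receptor Boc was in 3 libraries of each genotype, and Cdon in 3 knock-in and 2 wild type libraries. Hhip, a decoy receptor induced by the pathway, had none in any library and was picked after its values were seen.

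Genes of the primary cilium, the organelle in which vertebrate SMO signals, were marked in 10 of 14 cases in at least 1 library, where 56.3% of all genes were. Among all 14, 9, 6, 3 and 1 were marked across knock-in replicates 1 to 4, against 6, 7, 0 and 0 across wild type replicates. Kif7, the ciliary kinesin that regulates GLI, was found in 2 knock-in libraries and 0 wild type ones (conditional exact p = 0.425). Among 16 cell cycle and Myc genes, 12, 12, 3 and 1 were marked across knock-in replicates, against 12, 8, 2 and 0 across wild type replicates. Ccnd3, another D-type cyclin, was found in 2 knock-in libraries and 0 wild type ones (conditional exact p = 0.425), and Myc, Top2a and Pcna, picked after their values were seen, had none in any library. Over the 5 lists 0 genes had p under 0.05 by the conditional exact test before adjustment. More list members were in more knock-in than wild type libraries in every list (3 against 2, 3 against 1, 9 against 3, 7 against 2 and 6 against 1 in the order given in the plot of lists), as were 25.5% against 8.37% of all genes.

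**Figure D5:**
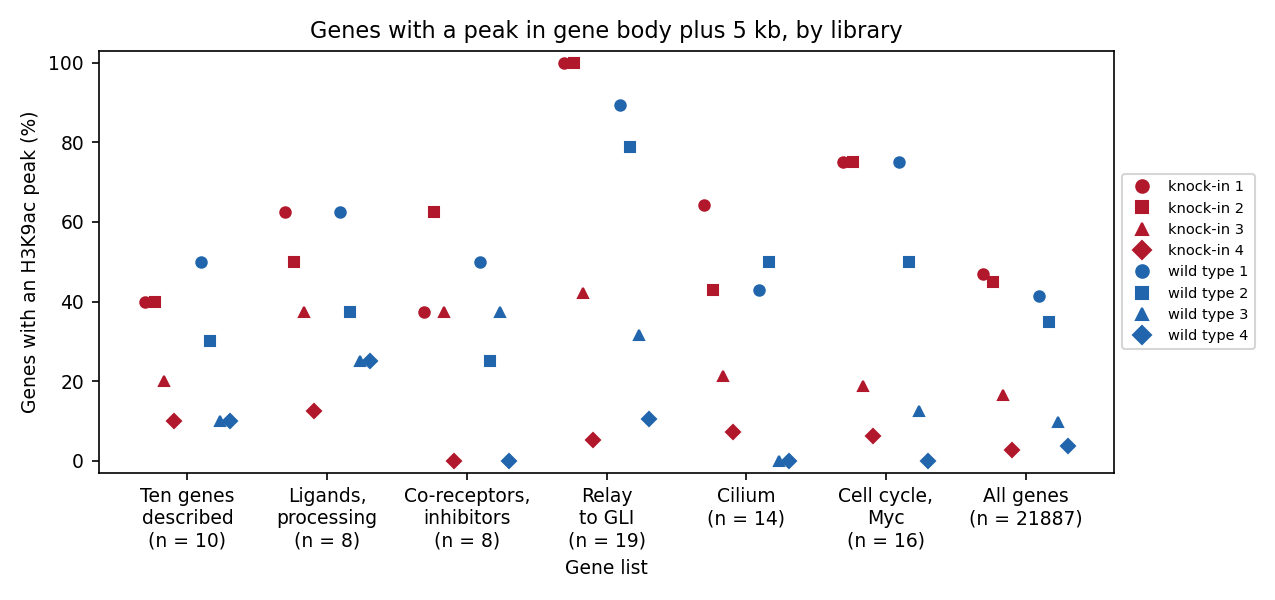
Each point is the share of a gene list (x axis, with its number of genes) that carried a peak in the gene body plus 5 kb in 1 library (y axis, %); red points left are knock-in and blue points right are wild type, with a marker shape per replicate number. The relay list lies above all genes in every library, and in each list replicates 1 and 2 lie above replicate 4 in both genotypes.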

How the data were processed

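H3K9ac ChIP-seq peaks of 8 cerebellar libraries were used. Per the submitters' processing notes, reads were aligned with Bowtie2 and the build was mm10. Per the file headers, the authors called peaks with MACS in Galaxy, and there is 1 list per library. Neither the version nor the settings nor an input control are stated in the labels or headers. The deposited score per peak is the authors' own value on a scale not stated, with a minimum of about 50 in each list. Scores served to order the peaks of 1 list. A start below 0 in 15 peaks was set to 0. Lists hold no read counts, so depth is unknown.

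Gene positions came from a RefSeq table of GRCm38.p6, with 21887 protein-coding genes on nuclear chromosomes. A gene had a peak when 1 bp or more of it lay in the gene body plus 5 kb. Such a window can hold a neighbour's peak. The conditional exact test (two-sided, Rasch odds of detection per library) covered genes in 1 to 7 libraries, with Benjamini-Hochberg adjustment over all of them and a threshold of 0.05. Covered length was compared over all 70 assignments. Promoter sequences are RefSeq's. Python 3.11.15, NumPy 2.4.6 and SciPy 1.17.1 were used.

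On simulated data, 200 of 12244 genes were given a peak in every library of 1 genotype and in 0 of the other's. The conditional test called 200 of them and 0 unchanged genes. Smaller changes were not simulated, nor was a change in 1 gene alone, which the adjustment makes harder to call. In the data the smallest conditional exact p, 0.000273, missed the threshold after adjustment. Deviations of same-numbered libraries had correlations of 0.103, 0.168, 0.170 and 0.367 over 12329 genes for replicates 1 to 4. Knock-in replicates 2, 3 and 4 were closest to the wild type library of their number, and knock-in replicate 1 to wild type replicate 2. Of the wild type libraries only replicate 4 was closest to its own number. The data therefore do not establish pairing by number, and the numbers were taken as a block only as an alternative. Members and lists were chosen with earlier results of these data known. The text names all members and, from each list, up to 4 genes that differed by 2 or more libraries between genotypes, or otherwise up to 2 found in the most libraries, and pathway genes with the presence pattern of Ptch1. Not every gene of the marker lists that this rule gives is named, and Gsk3b, Prkaca, Hhip, Myc, Top2a and Pcna were chosen outside it. The progenitor marker list is given whole, and the granule cell markers with the pattern of Meis1 were also named outside the rule. Alternatives were other windows, lists of equal length, a stricter overlap, each library left out, each pair of replicates, Fisher's exact test and the replicate block.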

Additional observations from a re-analysis of the deposited data

Results flagged for a closer look

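In 2 of the 21 sets of 4 libraries examined, 1 library lay far from the other 3. The covered length at Ccnd1 in wild type was 896 bp in replicate 1 and 0 bp in replicates 2 to 4. The covered length at Ccnd2 in wild type was 806 bp in replicate 1 and 0 bp in the others. Wild type replicate 1 held the longest wild type list, with 11409 peaks, and the part of its length in these values was not tested. Any set with a peak in only 1 library is flagged, whatever the length of that peak. The usual rate of about 1 in 20 sets flagged by chance therefore does not apply to these flags.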

How the results depend on the processing

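The count of 0 called genes was the same under every alternative run. Fisher's exact test and the conditional exact test with the replicate number as a block also called 0 genes, but these counts carry no information: Fisher's p cannot fall below 0.0286, and on simulated data the blocked test called 0 of 200 genes changed in all libraries. The block changed no other call. Within same-numbered pairs the smallest exact permutation p is 0.125. The differences in covered length, knock-in minus wild type, changed sign at Ptch1, Smo and Sufu under some alternatives and did not at Ccnd1 and Ccnd2. Ccnd2 had a peak in wild type replicate 1 alone, so its difference could only be negative or 0. That of Ccnd1 was 0 bp with lists of equal length and with replicates 3 and 4 only. An unchanged sign at the cyclins is thus no sign of stability. With the gene body only, that of Ptch1 was -80.5 bp, and with replicates 3 and 4 only it was -138 bp. With replicates 1 and 2 only, that of Smo was -69.5 bp. When each library was left out in turn, the difference ranged from -882 to 1130 bp for Ptch1, from -402 to 883 bp for Smo and from -34.8 to 880 bp for Sufu. The cause was not tested. Differences in the number of members or list genes with a peak moved by less than 1 SD under every alternative, but that SD is wide (1.72 members) and some differences changed sign. That of the members, 0.25, was -0.167 without knock-in replicate 1 or 2 and -0.25 without wild type replicate 3 or 4. It was 0 or positive under the other alternatives. That of ligands and their processing went from 0.25 to -0.75 with lists of equal length. With lists of equal length (1266 peaks), no library kept a peak at Sufu, Ccnd1 or Ccnd2, so that alternative gives no comparison there. Peak lists limit all of this, since a gene just under the peak threshold is listed as having none.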
